A study of Rhipicephalus microplus with 12 samples.

Results

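Of 13459 probes on a 2-colour array for the cattle tick *Rhipicephalus microplus*, 92 (0.684%) had similar ratios in midgut and salivary gland and a low ratio in ovary. A probe was counted among them when its mean log2 ratio in midgut and its mean log2 ratio in salivary gland each stood at least 1.5 above the ovary mean, lay less than 0.75 apart and were both above -1. The means were taken over the 4 arrays of a tissue. An identifier could be paired with 90 of the 92. Pairing was possible only for probes with values in the authors' deposited comparison tables, so a probe without an identifier here is one without such values. These measured means chose the probes, so the levels and the differences between tissues given here are a description, and no test of them is offered as support.

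The study dissected midgut, salivary glands and ovaries from adult females of the Mozambique strain on day 20 of feeding on Holstein-Friesian cattle. Each tissue had 2 biological replicates, and every replicate was hybridised on 2 arrays, which gives 12 arrays and n = 2 per tissue. Tissue cDNA carried Cy5 on every array, and a common pool of ticks of earlier feeding days and of day-20 female tissues carried Cy3. A value is the log2 ratio on 1 array. Going by the labelled dyes it is likely tissue over pool. Were it pool over tissue, the same probes would be those high in ovary. The labels do not say how many females were dissected for a replicate or whether the replicates came from separate cattle, so the spread given here is only that between these samples. All midgut and salivary gland hybridisations shared 1 slide, and ovary had a slide of its own, so for every difference over ovary given here slide and tissue cannot be told apart. With whole dissected organs, fewer cells that hold a transcript and less of it per cell cannot be told apart either.

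The tick midgut takes up the blood meal and digests its proteins inside epithelial cells. The salivary glands secrete the proteins that keep the feeding site open and return excess water and ions of the meal to the host. The ovary grows oocytes and takes up yolk proteins made largely by other organs. The identifiers are contig numbers and sequence accessions. None of those listed matched the RefSeq gene table (0 matches), and the files pair no description with a probe. The members are therefore described by identifier and level, with no role given to any of them, and the dissected tissues could not be checked against marker genes.

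Earlier results on these data set 3 arrays apart. In midgut this was the repeat of replicate 2, and in ovary the first hybridisation of replicate 1 and the repeat of replicate 2. The number of probes meeting the rule is given with and without them. Precision is bounded by the small number of arrays. A member's difference over ovary had a median standard error of 0.24 on the log2 scale, against 0.23 over all probes.

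The members were moderately above the pool in midgut and salivary gland and well below it in ovary. Their midgut means ran from -0.98 to 1.83 with a median of 0.48, which is 139% of the pool. Their salivary gland means ran from -0.98 to 2.08 with a median of 0.53, or 144% of the pool. In ovary they ran from -3.24 to -0.39 with a median of -1.51, or 35.2% of the pool. Over all probes the medians were 0.25 in midgut, 0.10 in salivary gland and 0.24 in ovary, so ovary was the tissue in which the members lay farthest from the bulk of the array. No member exceeded the pool in ovary, where 8136 of all 13459 probes did. In ovary 75 of the 92 were at least 2-fold below the pool and 27 at least 4-fold below it, against 1966 and 881 of all probes. The rule, which asks for a low ovary mean, fixes these counts in large part.

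On single arrays the picture was the same. The median over the 92 members was 0.52, 0.55, 0.55 and 0.47 on the midgut arrays, and 0.45, 0.44, 0.44 and 0.47 on the salivary gland arrays. It was -1.52, -1.35, -1.45 and -1.64 on the ovary arrays. Wherever 4 values of a tissue are listed, they are the first and the repeat array of replicate 1 and then those of replicate 2. The members' medians stayed close on the arrays set apart, although the medians of all probes did not. In ovary the median of all probes was -0.03 and -0.03 on the arrays set apart, and 0.39 and 0.34 on the other ovary arrays. Relative to the median of its own array the members' median was thus -1.49 and -1.61 on the ovary arrays set apart, and -1.74 and -1.79 on the others. The median member exceeded 59.6% to 77.6% of all probes on the midgut arrays and 69.6% to 78.2% on the salivary gland arrays, against 9.28% to 10.8% on the ovary arrays.

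**Figure D1:**
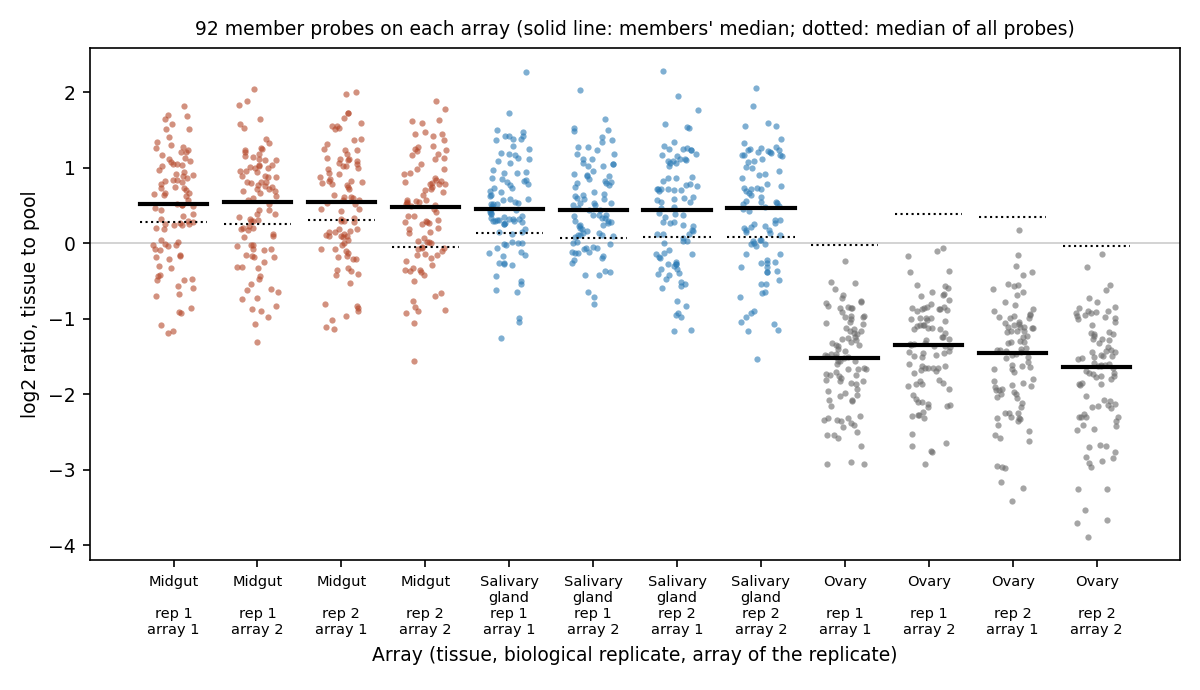
The 92 members on each of the 12 arrays, as log2 ratios of tissue to pool, with arrays grouped by tissue on the horizontal axis. Each point is a probe, the solid line is the members' median and the dotted line the median of all probes on that array. The members' medians lie between 0.44 and 0.55 on the midgut and salivary gland arrays and between -1.64 and -1.35 on the ovary arrays.

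Every member had all of its midgut and salivary gland arrays above all of its ovary arrays, with a distance of at least 0.26 and a median of 1.28 between the closest arrays. Over all probes, 19.9% showed that order. The median difference was 1.87 for midgut minus ovary, a 3.66-fold higher level in midgut, and 1.88 for salivary gland minus ovary, a 3.69-fold higher level in salivary gland. The same medians over all probes were 0.04 and -0.13. In a limma fit of tissue means to all probes, 91 of the 92 members passed an adjusted p of 0.05 as higher in midgut than in ovary, where 22.3% of all probes did. All 92 passed as higher in salivary gland than in ovary, where 21.3% of all probes did, and 13.2% of all probes passed in both contrasts. The member that did not pass for midgut against ovary was Contig3528, whose midgut replicates lay far apart, as given below. As the rule used both contrasts, nothing is read from these shares.

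The members sat just above the limit on the difference rather than far above it. The smaller of the differences over ovary was under 2 on the log2 scale for 71 of the 92 and at least 2 for 21. It was at least 2.5 for 8 and at least 3 for 3. Over the whole array the limit on the differences was met by 279 probes, of which 142 were then lost because midgut and salivary gland were too far apart. Of those, 109 were higher in midgut and 33 higher in salivary gland. A further 45 were lost because a mean was at -1 or below. Among the 279, midgut and salivary gland were thus close in 137 and apart in 142.

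**Figure D2:**
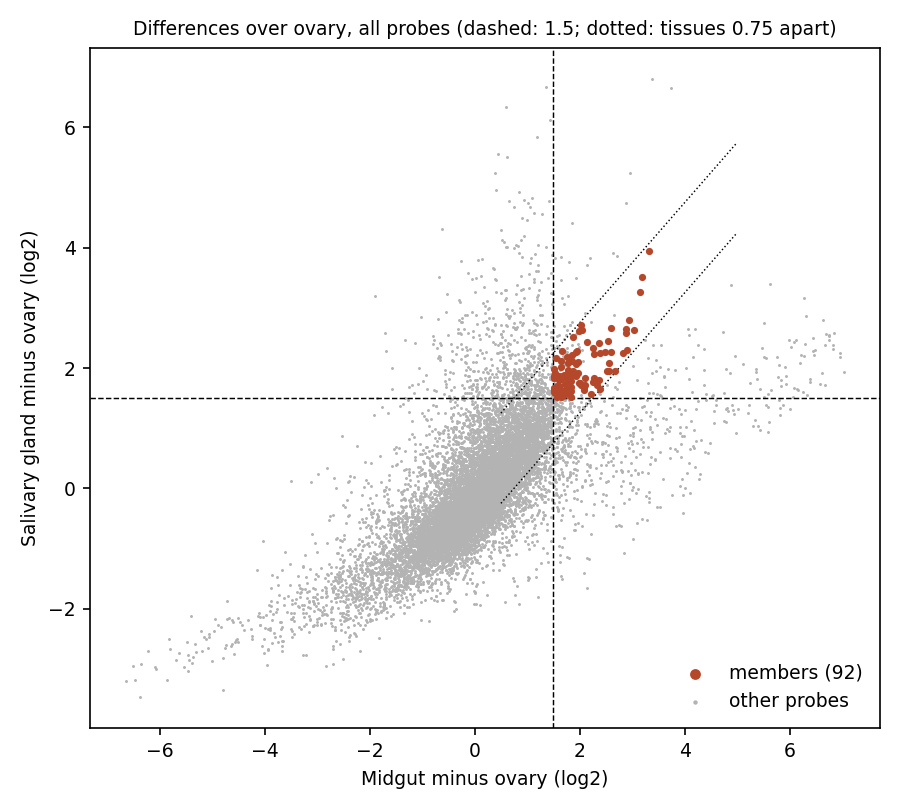
Midgut minus ovary (horizontal) against salivary gland minus ovary (vertical) for all 13459 probes, both on the log2 scale, with the 92 members in colour. The dashed lines mark the limit of 1.5 and the dotted lines a distance of 0.75 between midgut and salivary gland. Most members lie close to the corner where the dashed lines cross, and 3 lie above 3 on both axes.

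The probe with the largest difference was Contig9011, which also had the highest value for the lower of its midgut and salivary gland means. Its log2 ratios were 1.27, 1.26, 1.65 and 1.61 on the midgut arrays, 2.27, 2.02, 1.96 and 2.06 on the salivary gland arrays, and -1.56, -1.66, -2.11 and -2.16 on the ovary arrays. It was at 273% of the pool in midgut, 422% in salivary gland and 27.3% in ovary. All 8 arrays of midgut and salivary gland were high and all ovary arrays low, with nothing in between. The difference was 3.32 (SE 0.25), or 10.0-fold, for midgut minus ovary and 3.95 (SE 0.25), or 15.5-fold, for salivary gland minus ovary.

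CK191418 followed. The log2 ratios of CK191418 were 1.03, 1.11, 1.59 and 1.47 on the midgut arrays, 1.73, 1.65, 1.53 and 1.60 on the salivary gland arrays, and -1.36, -1.43, -2.32 and -2.42 on the ovary arrays. The ovary replicates were about 1 apart, and even the higher of them was far under every midgut and salivary gland array. The difference was 3.18 (SE 0.34), or 9.07-fold, for midgut minus ovary and 3.51 (SE 0.34), or 11.4-fold, for salivary gland minus ovary. Contig4621, singled out after its values were seen, was the third member with both differences above 3, at 3.14 for midgut minus ovary and 3.27 for salivary gland minus ovary.

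Contig6867 was second to Contig9011 by the lower of its midgut and salivary gland means. It averaged 1.41 ± 0.74 in midgut, 1.504 ± 0.090 in salivary gland and -0.84 ± 0.12 in ovary (SD, n = 2 each). Its midgut replicates were 1.05 apart, with ratios of 0.90 and 0.87 in replicate 1 and of 1.98 and 1.89 in replicate 2, so its midgut level is less certain than its salivary gland level.

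By level, the members fell into a larger set above the pool and a smaller set below it. In 63 of the 92 both the midgut and the salivary gland mean exceeded the pool, against 6297 of all 13459 probes. In 14 of the 63 both did so by at least 2-fold, against 286 of all probes. Median ratios of the 63 were 0.79 in midgut, 0.74 in salivary gland and -1.22 in ovary. In 18 members neither tissue exceeded the pool, against 3778 of all probes. The medians of the 18 were -0.49 in midgut, -0.52 in salivary gland and -2.42 in ovary. The other 11 had 1 tissue above the pool, midgut in 4 and salivary gland in 7. The smaller difference over ovary had a median of 1.76 in the set above the pool and 1.80 in the set below it. The split by level and the limit of 1.5 fix these values in large part, so nothing is read from them.

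At the upper end of the ovary levels stood Contig2 and CK187311. Contig2 averaged 1.82 ± 0.09 in midgut, 1.18 ± 0.03 in salivary gland and -0.39 ± 0.34 in ovary (SD, n = 2 each), or 354%, 227% and 76.3% of the pool. CK187311 averaged 1.51 ± 0.03 in midgut, 1.28 ± 0.03 in salivary gland and -0.48 ± 0.70 in ovary (SD, n = 2 each). Its ovary ratios were -1.05 and -0.90 in replicate 1 and 0.18 and -0.14 in replicate 2. For CK187311 the midgut and salivary gland replicates hardly differed, and the ovary replicates differed by 0.99, the widest ovary difference among the members with an identifier.

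At the lower end of the ovary levels stood Contig7012 and Contig4012, at 10.6% and 11.1% of the pool in ovary. Contig7012 had log2 ratios of -1.16, -1.31, 0.00 and -0.08 on the midgut arrays, -0.06, -0.06, -1.14 and -1.05 on the salivary gland arrays, and -2.92, -2.75, -3.42 and -3.89 on the ovary arrays. Midgut was 1.17 below salivary gland in replicate 1 and 1.05 above it in replicate 2. Its midgut and salivary gland means were therefore close (-0.64 and -0.58) although the same-numbered replicates were not. Replicate numbers are not known to pair samples of different tissues. Midgut replicate 1 lay near salivary gland replicate 2, and midgut replicate 2 near salivary gland replicate 1. Contig7012 was the only member with a distance of at least 0.75 in both replicates when samples were matched by number.

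Contig4012 had log2 ratios of -0.19, -0.44, -0.21 and -0.36 on the midgut arrays, -0.16, -0.05, -0.95 and -0.97 on the salivary gland arrays, and -2.90, -2.93, -3.16 and -3.71 on the ovary arrays. The midgut arrays were level, and salivary gland replicate 2 was lower than replicate 1. Contig452 and Contig1701, singled out after their values were seen, had nearly the same profile. Contig4012 and Contig452 differed by a mean of 0.09 and by at most 0.17 over the 12 arrays, the closest of the 4186 pairs of members, for which the median of the mean difference was 0.68. Contig452 and Contig1701 differed by a mean of 0.13. In ovary Contig452 stood at 11.3% of the pool and Contig1701 at 13.1%. Whether these identifiers share sequence could not be examined, as no sequences of the probes were used here.

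**Figure D3:**
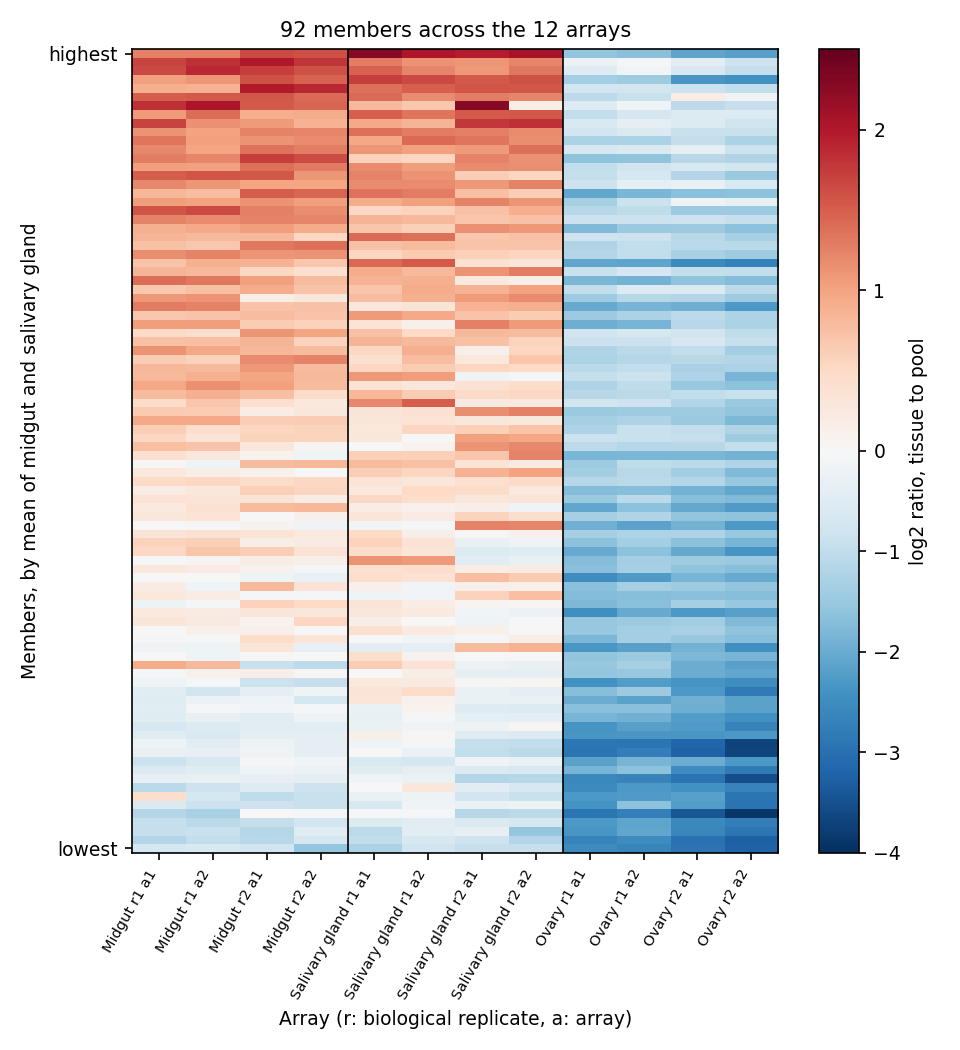
Log2 ratios of the 92 members (rows, ordered by the mean of midgut and salivary gland) on the 12 arrays (columns, by tissue, replicate and array), from blue below the pool to red above it. The upper rows are red in midgut and salivary gland, the lowest rows are pale blue there, and all rows are blue in ovary apart from single arrays near 0 in the upper rows.

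Between midgut and salivary gland the members had no common direction. The mean was higher in midgut for 45 and higher in salivary gland for 47, with a median difference of -0.01 and a range of -0.70 to 0.73. Of the 92, 47 differed by less than 0.25 and 76 by less than 0.5. In limma none of the 92 (0) passed an adjusted p of 0.05 for midgut against salivary gland, where 20.0% of all probes did, and 12 had an unadjusted p under 0.05, where 35.0% of all probes did. With the 12 arrays entered separately and the replicate as a random effect, limma called 12 of the 92 at an adjusted p of 0.05, where 31.1% of all probes passed. The limit of 0.75 holds these differences down by construction, so the low count is not a finding about the members.

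Taken singly, the replicates often differed in the direction of the distance between midgut and salivary gland. A replicate taken singly joins the samples of the tissues that share its number, and these are not known to be paired. Counts of distances within a replicate therefore depend on the numbering. Midgut minus salivary gland had opposite signs in the replicates for 49 members (53.3%), against 35.3% of the 10319 probes of the array whose midgut and salivary gland means were within 0.75. A sign turns easily where the means are close, so nothing is read from these shares. The distance reached 0.75 in replicate 1 for 11 members and in replicate 2 for 18, against 3934 and 3613 of all 13459 probes. The limit of 0.75 on the means holds the members' counts down. Salivary gland replicates were at least 0.5 apart for 29 members (31.5%), against 18.7% of all probes. For midgut replicates this held for 18 members (19.6%), against 22.0% of all probes, and for ovary replicates for 21 members (22.8%), against 16.4%. The widest replicate difference of all was in the midgut ratios of Contig3528, 0.92 and 0.80 in replicate 1 and -0.90 and -1.06 in replicate 2. In salivary gland Contig3528 had 0.64, 0.37, -0.25 and -0.31, and in ovary -1.51, -1.33, -1.99 and -2.16, so that replicate 2 was the lower one in every tissue.

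Over the members, repeat arrays of the same RNA lay closer together than biological replicates. The median distance between the first and the repeat array over the members was 0.08 and 0.10 in the midgut replicates, 0.12 and 0.09 in the salivary gland replicates and 0.16 and 0.20 in the ovary replicates. Over all probes it was 0.15 and 0.21 in midgut, 0.16 and 0.12 in salivary gland and 0.23 and 0.24 in ovary. The distance between biological replicates was taken between means of 2 arrays, which lessens array noise, and that between repeats between single arrays. Between biological replicates the members' median distance was 0.20 in midgut, 0.26 in salivary gland and 0.25 in ovary. The members thus varied more between replicates than between arrays of a replicate, even with the arrays averaged. Over all probes the distance between replicates was 0.23 in midgut, 0.25 in salivary gland and 0.21 in ovary. As the measures are unlike, replicates and repeat arrays are not ranked for ovary over all probes. In ovary replicate 2 was the lower one for 66 of the 92 and the higher one for 26. It was the higher one for 6049 of all 13459 probes.

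Applying the same limits to 1 replicate alone and reading the chosen probes in the other gave values that the choice had not used. Each replicate here joined the same-numbered samples of the tissues, which are not known to be paired. Replicate 1 chose 100 probes. In replicate 2, both midgut and salivary gland were above ovary for 91 of these, against 37.1% of all probes, and both by at least 1.5 for 51, against 2.82% of all probes. All limits together were met by 35 of the 100, against 0.721% of all probes. The median of midgut minus ovary over the 100 was 1.84 in replicate 2 and 1.95 in replicate 1, and that of salivary gland minus ovary was 1.67 in replicate 2 and 1.91 in replicate 1. Both tissues were thus above ovary again in most of these probes, with smaller median differences. Most of the exceptions had no identifier, which here means no values in the authors' deposited comparison tables. The rule did not use this. Of the 10 chosen probes without one, 8 did not have both tissues above ovary in replicate 2, against 1 of the 90 with one.

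Replicate 2 chose 97 probes. In replicate 1 both tissues were above ovary for 92 of these, against 38.6% of all probes, and both by at least 1.5 for 39, against 1.97%. All limits were met by 35 of the 97 (36.1%), against 0.743% of all probes. The median of midgut minus ovary over the 97 was 1.62 in replicate 1 and 1.95 in replicate 2, and that of salivary gland minus ovary was 1.62 in replicate 1 and 1.92 in replicate 2. The medians were again smaller in the replicate that had not chosen the probes, for midgut by more than in the probes chosen in replicate 1. Of the 5 chosen probes without an identifier, 3 did not have both tissues above ovary in replicate 1, against 2 of the 92 with one. The shares meeting all limits depended on which ovary arrays made up a replicate. With the repeat arrays of ovary exchanged between its replicates, 16.5% of those chosen in replicate 1 met the limits in replicate 2, and 65.5% of those chosen in replicate 2 met them in replicate 1. The distance of less than 0.75 between midgut and salivary gland did not stand out against all probes when read this way. It was met in the other replicate by 73 of the 100 and by 75 of the 97, where 73.2% and 70.8% of all probes met it. Over all arrays, 137 of the 279 probes that met the limits on the differences also met the limit on the distance. The comparison for the distance therefore depends on the probes taken as background. The differences over ovary carried over between replicates beyond the share of all probes. Both ovary replicates shared a slide that the other tissues were not on, so slide and tissue cannot be told apart here either. For the closeness of midgut and salivary gland no conclusion is drawn, as probes equally far above ovary were not set beside it within a replicate.

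**Figure D4:**
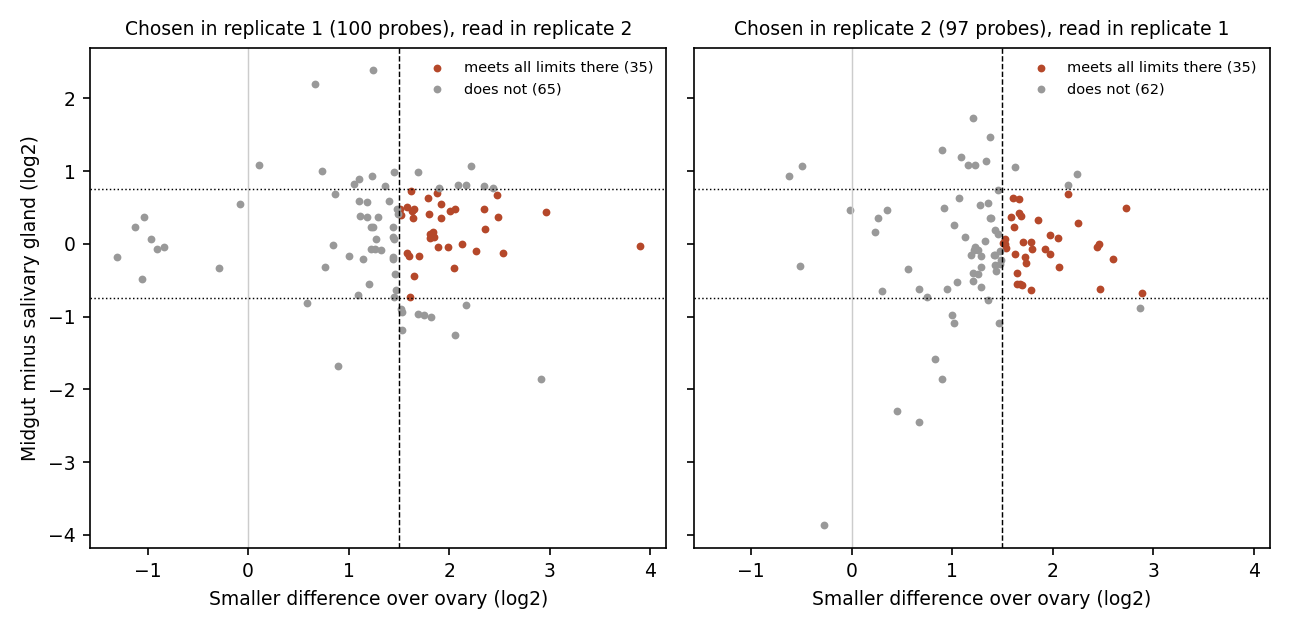
Probes chosen by the limits in 1 replicate, plotted by their values in the other replicate, with the smaller difference over ovary on the horizontal axis and midgut minus salivary gland on the vertical axis, both on the log2 scale. Coloured points meet all limits in the replicate where they are read (35 of 100 at left, 35 of 97 at right). Most points lie right of 0, and many of those that miss lie between 1 and 1.5 on the horizontal axis.

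Of the 92 members, 35 met the limits in both replicates taken singly, 49 in 1 replicate and 8 in neither. The split depends on the numbering that joined samples of different tissues, which are not known to be paired. These 8 were members by their means over all arrays only. They include Contig7012 and Contig5604. Contig2962 and CV455533, singled out after their values were seen, are also among them, with salivary gland means of 0.60 ± 0.79 and 0.36 ± 1.03 (SD, n = 2). In every member, both differences over ovary exceeded 1 in each replicate, with the lowest at 1.00.

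Probes lay close to each limit on both sides, so membership at the edge was decided by small amounts. CV438901 was closest inside the limit of 1.5, with 1.502 for midgut minus ovary and 1.64 for salivary gland minus ovary, and Contig645 was closest outside it, with 1.87 for midgut minus ovary and 1.494 for salivary gland minus ovary. For the distance between midgut and salivary gland, CV439438 was closest inside at 0.73 and EW679265.1 closest outside at 0.77. For the lower limit of -1, Contig5604 was closest inside with a midgut mean of -0.98 and Contig5557 closest outside with -1.06. These steps are smaller than the replicate SD of several of the means concerned, such as 0.14 for Contig5604 and 0.39 for Contig5557 in midgut. With a limit of 1 on the differences over ovary, 463 probes qualified, and with a limit of 2, 21 did.

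The count also moved with the arrays used. Without the 3 arrays set apart, 74 probes met the limits, of which 70 were members. With only the ovary arrays set apart standing for ovary, an alternative chosen after seeing the data, 158 did, of which 91 were members. Without ovary replicate 1, 132 probes met them, among them 89 members. After quantile normalization between arrays 55 probes met them, of which 38 were members, and after scale normalization 62, of which 47 were members.

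The same limits with the tissues exchanged gave shorter lists in the values as deposited. Ovary and salivary gland were both high over midgut at 57 probes (0.424%), and midgut and ovary were both high over salivary gland at 17 (0.126%). That order was not independent of the processing. After quantile normalization the 3 counts were 55, 58 and 42, and with a limit of 2 on the differences they were 21, 23 and 0. No order of the patterns is therefore given.

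The members were measured on spots that the authors mostly kept. No value was given in the authors' deposited table for 2 of the 92 members (2.17%), against 2764 of 13459 probes (20.5%). For 18 of the 90 members with values (20.0%), the fold changes of the authors' deposited table matched array means only with at least 1 array left out, against 3566 of 10695 probes (33.3%). An ovary array was left out for 4 members (4.44%), against 13.7% of all probes with values and 9.14% of the 3128 probes whose ovary mean lay in the range of the members. The reason for leaving out a spot is not given in the sources used here. Whether a probe was left out was no part of the rule, but the rule used means over the same arrays. Whether its limits favour probes with all arrays kept was not tested, so nothing is read from these shares.

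In the authors' deposited table all 90 members with values had an adjusted p under 0.05 as higher in midgut than in ovary, where 37.1% of 10695 probes did. For ovary against salivary gland, the authors' deposited table had all 90 as lower in ovary, where 34.8% of all probes were. For midgut against salivary gland, 19 of the 90 were under 0.05 in the authors' deposited table, 13 higher in midgut and 6 higher in salivary gland, where 43.2% of all probes were. Those tables were made from these same hybridisations, and their fold changes served to pair identifiers with lines, so they give no separate support. The fold changes of the authors' deposited table met the limits on the differences for 89 of the 90. The exception was Contig8295, singled out after its values were seen. In salivary gland it had log2 ratios of 0.81, 0.68, 2.28 and 0.17, with the arrays of replicate 2 far apart. The authors' fold changes matched with 2 salivary gland arrays left out, the first array of each replicate. For Contig8295 the salivary gland minus ovary difference was 1.09 in the authors' deposited table and 1.65 over all arrays.

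The kinds of identifier and the numbering of the array were no part of the rule. Of the 90 with an identifier, 65 (72.2%) were contigs, against 71.2% of all probes with an identifier. The accessions of single sequences made up 26.7%, against 25.2%, and identifiers starting with TC made up 1.11% (1 member), against 3.60%. The members' feature numbers on the array ran from 211 to 15730 with a median of 7994, against 4 to 15740 with a median of 7876 for all probes, so they were not gathered at 1 end of the numbering. No contig had more than 1 member probe. Contig206 was the only contig of a member with a second probe on the array. Its member probe Contig206B averaged 0.76 ± 0.41 in midgut, 0.71 ± 0.13 in salivary gland and -0.81 ± 0.13 in ovary (SD, n = 2 each). Its other probe, Contig206A, averaged 0.27 ± 0.15 in midgut, 0.23 ± 0.91 in salivary gland and -0.45 ± 0.43 in ovary (SD, n = 2 each). Both had the same order of tissues, but Contig206A was short of the limits and its salivary gland replicates were wide apart.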

How the data were processed

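Midgut, salivary gland and ovary RNA was compared with a pool on 12 arrays. The deposited value table holds log2 ratios, 1 per probe and array, for 13459 numbered lines with 0 missing values. Per the submitters' processing notes, limma was the authors' tool. How background was corrected and values normalized is not given in the sources used, spot intensities were not used, and the array medians differ, so the values were not centred in common. The authors' deposited comparison tables give log2 fold changes and adjusted p-values, per the file headers. Lines were paired with identifiers where differences of tissue means, over all or part of the arrays, equalled the authors' log2 fold changes within 2e-08. All 10695 identifiers with values found 1 line (0 ambiguous), and 0 of as many mismatched decoys did.

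Arrays of a replicate were averaged (avearrays) and tissue means fitted over all probes in R 4.3.3 by lmFit and eBayes of limma 3.58.1, with Benjamini-Hochberg adjustment over all probes and 3 residual degrees of freedom. The threshold was an adjusted p of 0.05. No exact permutation test was run, since with 2 samples a group its two-sided p is at least 0.33. The fit was tested on simulated data. The members, the rule and the alternatives were chosen with earlier results of these data known. Named members followed a rule: among members with an identifier, those with the 2 largest differences, the 2 highest levels, the 2 highest and the 2 lowest ovary means, the closest on each side of each limit and the widest replicate difference. Python 3.11.15 (numpy 2.4.6, pandas 2.3.3) served for the joins and matplotlib 3.10.9 for the figures.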

Additional observations from a re-analysis of the deposited data

How the results depend on the processing

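The number of probes meeting the limits was 55 with quantile normalization, 463 and 21 with a difference limit of 1 and 2, and 158 with only the ovary arrays set apart (an alternative chosen after seeing the data), and 77 to 132 when 1 replicate was left out. The members' median of midgut minus ovary was 1.55 with quantile and 1.67 with scale normalization, and 1.86 to 1.98 without 1 replicate. That of salivary gland minus ovary was 1.96 with median-centred arrays, 1.81 with quantile normalization, 1.78 without the 3 arrays set apart and 1.77 to 2.02 without 1 replicate. That of midgut minus salivary gland was -0.27 with quantile and -0.24 with scale normalization. Members called different between midgut and salivary gland in limma numbered 2 with median-centred arrays (20.5% of all probes), 2 in the fit to probes with deposited comparison values (28.8%), 5 with quantile normalization (17.0%), 7 with scale normalization (15.0%), 12 with the replicate as a random effect (31.1%), 1 without the 3 arrays set apart (26.5%) and 0 to 1 without 1 replicate (12.6% to 15.6%). With ovary repeat arrays exchanged between replicates, 16.5% of the probes chosen in replicate 1 met the limits in replicate 2 and 65.5% of those chosen in replicate 2 met them in replicate 1. With quantile and scale normalization 25.7% and 26.1% of those chosen in replicate 1 did. The cause was not tested. With a replicate block in limma 92 members were called for midgut over ovary (21.8% of all probes), 92 for salivary gland over ovary (21.0%) and 0 for midgut against salivary gland (19.0%). The replicate differences of the tissues correlated at 0.034, -0.029 and 0.101 across probes, which does not show that same-numbered samples are paired. Of 264 values of the named members' differences over ovary under these settings, 0 changed sign, 18 moved by more than the replicate spread, and the lowest was 0.77. The rule chose these members for large differences on the same arrays, so the lack of sign changes is no support. Some of the 264 repeat the main value, as leaving out a replicate of the tissue not compared changes nothing. The 2 arrays per replicate and the lack of spot intensities limit what can be said of dim spots.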
